A study of Homo sapiens with 6 samples.

Results

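The comparison described here is between camptothecin and DMSO in K562 cells that overexpress wild-type SLFN11, measured by ATAC-seq, which reads out accessible chromatin as the places where a transposase could cut. Its members are the peak intervals of 2 libraries, 1 given DMSO and 1 given 1000 nM camptothecin (CPT) for 4 h. CPT intervals that no DMSO interval overlaps by at least 1 bp are called gained, and DMSO intervals that no CPT interval overlaps are called lost. Merged together, the 2 lists made 12446 regions, out of 17466 regions over all 6 libraries of the series. The members were 838 gained sites, 6937 lost sites and the sites found in both lists, 4724 as counted in the CPT list and 4714 as counted in the DMSO list.

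K562 is an established human leukaemia line, labelled here as lymphoblast, and every library came from it. Vector control cells and cells overexpressing the E669Q form of SLFN11, each with DMSO and with the same CPT treatment, served as reference libraries. Each of the 6 groups is 1 library, so no difference below has a replicate check and no test between groups was made. The labels do not say how SLFN11 expression was driven, whether a line was 1 clone, or how long DMSO was applied.

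SLFN11 is a Schlafen-family protein that is recruited to stressed replication forks and blocks further replication, and cells that express it are sensitive to drugs that damage DNA during replication. E669Q lies in its ATPase domain. Camptothecin traps topoisomerase I on DNA, so that forks run into the trapped complexes. By its title the series asked how SLFN11 remodels chromatin and activates immediate early genes under such stress. Sites are named by chromosome and position on the hg19 build, since no gene annotation of that build was used. Marker genes of K562 and the SLFN11 gene itself were not analysed here.

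The depth of the libraries differed within the comparison. With the depth of vector with DMSO, the lowest of the 6, set to 1, the wild-type SLFN11 library had a depth of 1.72 with DMSO and 1.09 with CPT, as recovered from the peak values. It was 1.09 in vector with CPT, 1.33 in E669Q with DMSO and 2.22 in E669Q with CPT. The background values rose in steps, and a step read as 1 fragment in 10 kb gave a fragment length of 90 bp with DMSO and 83 bp with CPT in this line. That reading is an assumption and was not checked, since the settings of the peak caller are not given. Depth and treatment cannot be told apart within the line, so the vector libraries, which have nearly the depth of the CPT library, are set beside it throughout. The vector libraries differ from the wild-type SLFN11 DMSO library in genotype as well as in depth. Closeness to them therefore does not set depth apart from treatment either.

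Most sites of the CPT list were sites that the DMSO library already had, and many DMSO sites were not listed after CPT. Gained sites were 838 of 5562 CPT intervals, so that 15.1% of the CPT list was called gained. Lost sites were 6937 of 11651 DMSO intervals, or 59.5% of that list. Over the same comparison in the vector line, 45.1% of the CPT list and 39.5% of the DMSO list had no partner, and in the E669Q line 45.2% and 19%. Loss was most frequent among weak sites. Ranked by −log10 p, the peak caller's significance of a summit over background, 9 of the 100 strongest DMSO intervals were lost, against 27.7% of ranks 1001 to 2000 (95% Clopper-Pearson interval 24.9 to 30.6) and 84.1% of ranks 8001 to 11651 (82.8 to 85.2). Gained sites had the same gradient at lower level. None of the 100 strongest CPT intervals was gained (upper bound 3.62%), and 31.5% of ranks 4001 to 5562 were (29.2 to 33.9). All intervals given for shares and medians cover counting error only and treat sites as independent.

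The comparison was repeated with lists matched in length. The 5562 strongest DMSO intervals by −log10 p, as many as the CPT list holds, reached down to a −log10 p of 9.57. Of these, 2159 (38.8%) were absent from the CPT list and 3403 (61.2%, 59.9 to 62.5) were found again. Seen from the other side, 2118 CPT intervals (38.1%) lay outside the strongest DMSO intervals. Of these 2118, 1280 lay in the weaker part of the DMSO list and 838 in no part of it. Equal lists must differ by nearly equal numbers in both directions, so these counts carry no direction.

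The wild-type SLFN11 DMSO sites were found again in the CPT library of the same line about as often as in the untreated vector library. The CPT library held 40.5% of the 11651 DMSO intervals (39.6 to 41.4). The vector library with DMSO held 38.0% of them (37.1 to 38.9) and the vector library with CPT 41.5% (40.6 to 42.4). The share in the CPT library of the same line thus lay between those in the vector libraries. These 3 shares rest on the same DMSO list, and are set side by side without a test. Among the 5562 strongest DMSO sites, 38.8% (37.5 to 40.1) were missing from the CPT library, 41.5% (40.2 to 42.8) from vector with DMSO and 36.2% (34.9 to 37.5) from vector with CPT.

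The shares were also close at each level of signal. The summit pileup is the number of fragments over the strongest base of an interval, as recovered from the peak values. At 6 fragments or fewer the share found in the CPT library, 7.02%, was under those in vector with DMSO (9.03%) and with CPT (7.74%), and at 7 to 9 fragments, 19.01%, it was above both (16.7% and 18.4%). For DMSO sites with 10 to 14 fragments, 39.8% (38.3 to 41.4) were found in the CPT library, 35.9% (34.4 to 37.4) in vector with DMSO and 42.3% (40.7 to 43.8) in vector with CPT. For sites with 25 fragments or more the shares were 88.6% (86.2 to 90.7), 88.1% (85.6 to 90.2) and 89.4% (87.1 to 91.5). The E669Q line gave the other comparison within a line, at a similar step in background (a ratio of 0.606, against 0.583 here), with its CPT library as the deeper one. Of its CPT sites with 10 to 14 fragments, 54.8% (53.4 to 56.3) were found in its DMSO library, and of those with 15 to 24 fragments 84.7% (83.3 to 86.0), against 71.0% (69.2 to 72.8) in the wild-type SLFN11 line. Those shares were higher, while at 25 fragments or more the E669Q share was 88.4% (86.2 to 90.4), within the range of the others. The E669Q DMSO library is itself deeper (1.33) than the wild-type SLFN11 library with CPT (1.09).

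**Figure D1:**
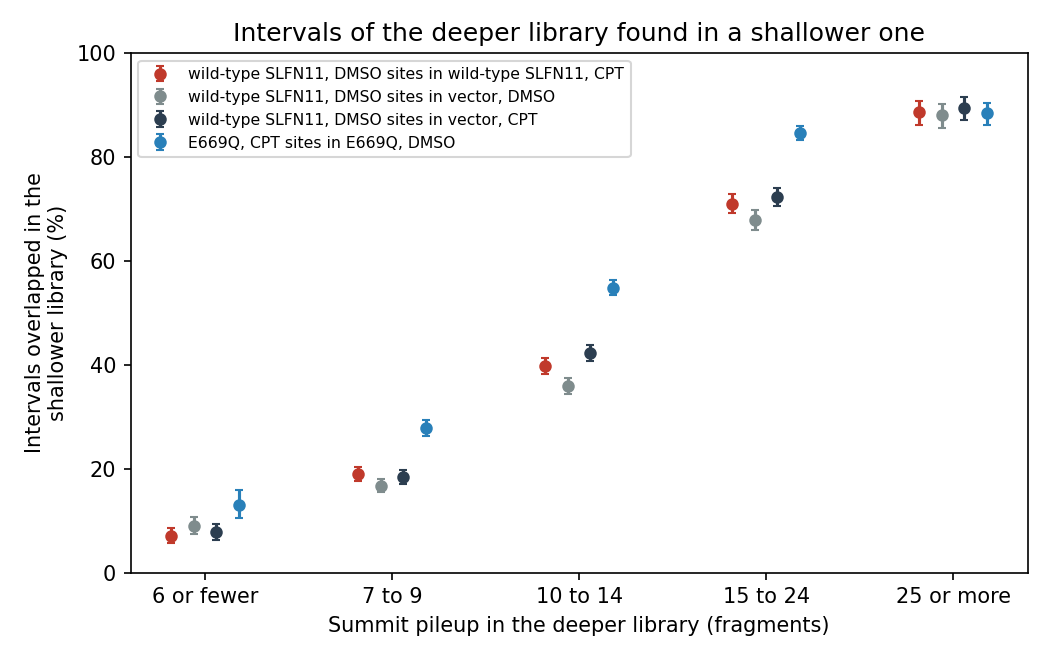
Share of intervals of a deeper library (y axis, percent) overlapped by at least 1 bp in a shallower library, by summit pileup in the deeper one (x axis, fragments). Points are single libraries and bars 95% Clopper-Pearson intervals. Wild-type SLFN11 DMSO sites were found in their own CPT library (red) at shares close to those in the vector libraries (grey and dark blue), while E669Q CPT sites in the E669Q DMSO library (light blue) lay higher up to 24 fragments.

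Scaling to the shallower library gave a like picture. Pileup and background at each DMSO summit were multiplied by 0.583, the CPT over DMSO ratio of the lowest background. Of 6931 lost sites with a recovered pileup, 2983 (43.0%) then fell under the lowest −log10 p of the CPT list, 5.31, and 3948 stayed above it. Of all 8028 DMSO sites that stayed above, 50.8% (49.7 to 51.9) were found in the CPT library. Scaled in the same way to the vector libraries, 51.0% (49.8 to 52.1) were found with DMSO and 53.5% (52.4 to 54.6) with CPT. In the E669Q line, 64.2% (63.2 to 65.2) of CPT sites that stayed above were found in its DMSO library.

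In the lists as deposited, gained and lost sites were narrower than shared ones and mostly had 1 summit. Median width was 181 bp for gained sites (177 to 186) and 222 bp for lost sites (218 to 225). Shared sites were wider, with 395.5 bp as listed with DMSO (389 to 405) and 254 bp as listed with CPT (248 to 259). Of the 838 gained sites, 1 had 2 summits (0.119%, 0.00302 to 0.663) and none had 3. Of the 6937 lost sites, 298 had 2 summits and 18 had 3, together 4.56% (4.08 to 5.07). Lost sites among the strongest 5562 DMSO intervals were wider, with a median of 313 bp (305 to 319), and 12.0% of them (10.7 to 13.4) had 2 or more summits. Among shared sites 26.2% (24.9 to 27.4) had 2 or more summits in the DMSO list, and 7.15% (6.44 to 7.93) in the CPT list.

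Width and summit number sorted the DMSO list as its strength did. Intervals of 150 bp or less were lost in 86.7% of 1703 cases (85.0 to 88.3), those over 300 and up to 400 bp in 53.3% of 2140 (51.1 to 55.4) and those over 500 bp in 23.7% of 1868 (21.8 to 25.7). DMSO intervals with 1 summit were lost in 65.5% of cases (64.6 to 66.5), those with 2 in 23.5% (21.2 to 25.9) and those with 3 in 7.96% (4.79 to 12.3). None of the 53 DMSO intervals with 4 or more summits was lost, with a Clopper-Pearson upper bound of 6.72%. In the CPT list 32.4% of intervals of 150 bp or less were gained (28.9 to 36.0) and 0.510% of those over 500 bp (0.0618 to 1.83).

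Similar widths appeared where both libraries had DMSO. DMSO sites missing from vector with DMSO had a median width of 225 bp, and those missing from vector with CPT 222 bp. Median summit pileup was 9 fragments in all 3 missing sets. Sites outside the wild-type SLFN11 DMSO list made up 15.4% (14.4 to 16.4) of the vector DMSO list and 16.0% (15.03 to 16.93) of the vector CPT list, against the 15.1% called gained. Their median widths were 187.5 and 175 bp, and 1 and 0 of them had 2 or more summits. By number, width and summits the gained sites were thus close to what both vector libraries held outside that DMSO list. In signal they were nearer to vector with DMSO than to vector with CPT. Median fold was 4.91 for gained sites, against 4.92 and 5.31, and −log10 q was under 3 in 41.5% of them, against 37.3% and 27.6%.

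**Figure D2:**
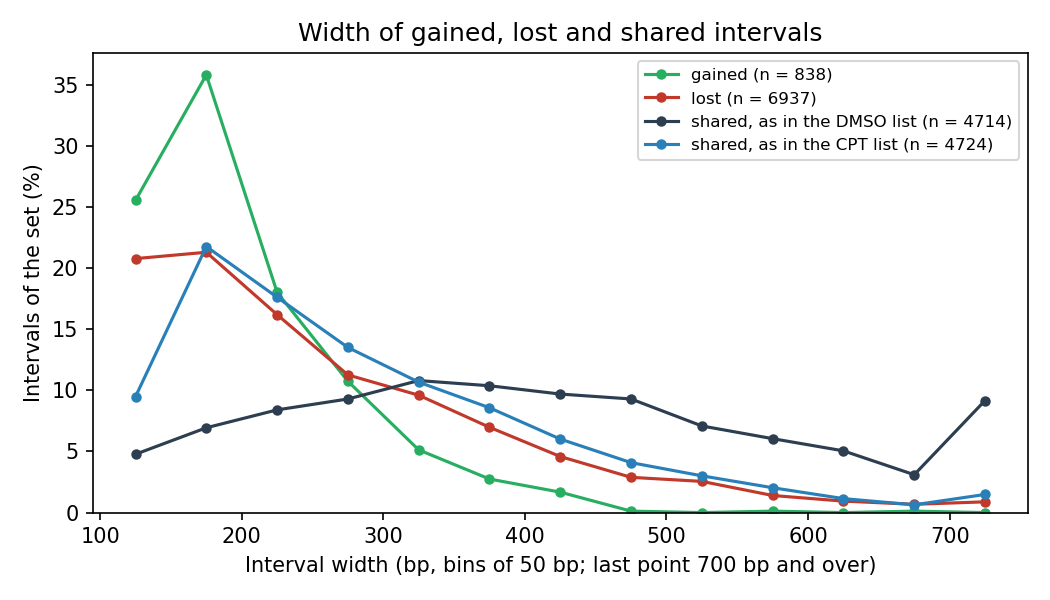
Width of gained, lost and shared intervals in bins of 50 bp (x axis) as percent of each set (y axis). Gained sites have a median of 181 bp and their fullest bin, 35.8% of them, starts at 150 bp, lost sites have a median of 222 bp, and shared sites are wider in the DMSO list than in the CPT list.

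Sites kept through CPT were narrower and lower in the CPT library. In 4577 pairs of 1 DMSO and 1 CPT interval, the DMSO interval was the wider in 3637 (79.5%) and the CPT interval in 928. The CPT over DMSO ratio had a median of 0.706 for width (0.691 to 0.719), 0.868 for fold at the summit (0.861 to 0.877) and 0.625 for pileup (0.615 to 0.632). In 1181 pairs the DMSO interval had 2 or more summits, and in 964 of these (81.6%) the CPT interval had 1. The reverse, 2 or more CPT summits against 1 with DMSO, was seen in 99 pairs.

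These ratios too were close to those of the vector libraries. Against the same DMSO list, the width ratio was 0.714 (0.698 to 0.725) for vector with DMSO and 0.706 (0.694 to 0.720) for vector with CPT. The fold ratio was 0.882 (0.872 to 0.891) and 0.891 (0.884 to 0.899). The second of these intervals lay above that of the CPT library and the first overlapped it. More summits in the deeper interval were seen in 22.4% of pairs with the CPT library, 23.4% with vector DMSO and 22.3% with vector CPT. In the E669Q line, DMSO over CPT, the width ratio was 0.872 (0.860 to 0.882) and the fold ratio 0.942 (0.935 to 0.951).

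Some shared sites stood at very different places in their 2 lists. The lists hold 11651 and 5562 intervals, so a difference in rank is no measure of change and served here only to pick sites, among pairs in the upper 1000 of either list by −log10 p. The site at chr1:76251802-76251972 had rank 10906 with DMSO and 798 with CPT. There the fold was 4.01 with DMSO and 7.98 with CPT, and the CPT interval was 401 bp wide against 171 bp. The site at chr6:31620146-31620655 had ranks 10409 and 407 and folds of 4.41 and 8.60, and in the other 4 libraries its fold was 4.64 to 7.24. The other 3 of the 5 sites with the greatest rank difference of this kind lay at chr19:12792240-12792374, chr1:2064680-2064945 and chr12:104458179-104458317. None of these 3 was called in a vector library.

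The 5 sites with the greatest rank difference the other way were in the upper 1000 with DMSO and close to the end of the shorter CPT list. At chr13:60737912-60738266 the pileup was 26 fragments with DMSO and 5 with CPT, with ranks 384 and 5532. Its fold was 11.9 with DMSO, 4.24 with CPT and 6.66 to 9.95 in the other 4 libraries, so that the DMSO value was the highest of the 6 and the CPT value the lowest. The sites at chr9:69491383-69491799 and at chr1:231114554-231114998 had pileups of 18 and 26 with DMSO and 4 and 6 with CPT. The remaining ones were at chr7:26904148-26904669 and at chr11:6576181-6576496. Since the sites were picked for their difference, these values are a description.

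Gained sites were modest in signal. Their median fold was 4.91 (4.87 to 5.01) and their median pileup 6 fragments, and for 348 of 838 (41.5%, 38.2 to 44.9) the −log10 q was under 3, close to the value of 2.00 at which the list ends. The gained site with the highest −log10 p, 14.97, lay at chr19:47551930-47552140, and was interval 421 of the CPT list by that measure. It had 15 fragments with CPT, 11 in vector with CPT, 6 in E669Q with DMSO and 13 in E669Q with CPT, and was not called in vector with DMSO. Next came chr17:80606149-80606425 (13 fragments), chr12:50017123-50017384 (12) and chr2:92281283-92281511 (16). The site on chromosome 2 was called in no other library and the other 3 also in E669Q with CPT.

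The remaining sites of the upper 10 had 9 to 12 fragments. The site at chr12:114403939-114404120 directly adjoined the DMSO interval chr12:114404121-114404276. With no shared base, the rule of 1 bp counted them as 1 gained and 1 lost site. At chr2:27603548-27603838 the vector libraries had 6 fragments with DMSO and 7 with CPT, against 10 with CPT here. At chr21:47621066-47621380 and at chr19:12983860-12984287, with 9 and 12 fragments, no other library had a call. The others were chr7:99716942-99717152 and chr1:100731684-100731923, each called in 1 other library.

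The widest gained sites stood out from the narrow majority. They lay at chr2:103353129-103353802 (674 bp), chr1:204485042-204485638 (597 bp) and chr6:56911439-56911903 (465 bp). The remaining 2 were at chr19:44915248-44915686 (439 bp) and chr19:45988729-45989164 (436 bp). The site on chromosome 1 was called in all 4 libraries of the other lines, where its pileup was 8 to 16 fragments, against 8 here. That at chr19:45988729-45989164, with 7 fragments, was called in this CPT library only. The only gained site with 2 summits was at chr17:79479610-79480002, with 11 fragments, and was also called in vector with CPT.

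Close to 40% of gained sites were called nowhere else. Of 838, 329 (39.3%, 35.9 to 42.7) overlapped no interval in the 4 libraries of the other lines, and 17 (2.03%, 1.19 to 3.23) overlapped one in all 4. Of lost sites 32.1% (31.0 to 33.2) overlapped none in those 4 libraries, and of shared sites as listed with CPT 3.94% (3.40 to 4.53). For comparison, 354 regions were found in vector with DMSO alone and 351 in vector with CPT alone. In these 2 vector libraries 808 and 927 sites lay outside the wild-type SLFN11 DMSO list. Gained sites overlapped 12.6% (10.5 to 15.1) in vector with DMSO, 16.2% (13.8 to 18.9) in vector with CPT, 29.0% (25.9 to 32.2) in E669Q with DMSO and 48.6% (45.1 to 52.0) in E669Q with CPT. In both lines the CPT library held more of them, and in both it was the deeper one. The part of depth in this was not tested. With a −log10 q of at least 5 asked of both lists, 375 sites were gained and their share in E669Q with CPT was 80.5%. That setting also cuts the DMSO list, and with q asked of the CPT list alone 130 sites were gained. The others of the 375 overlapped a weaker DMSO interval, so the 80.5% is not a share of stronger gained sites only. In the vector line, where depths were 1.00 and 1.09, 107 gained sites were in the CPT library and not in the DMSO one, and 77 the reverse. For the lost sites these counts were 930 and 785, the same lean towards the vector CPT library.

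**Figure D3:**
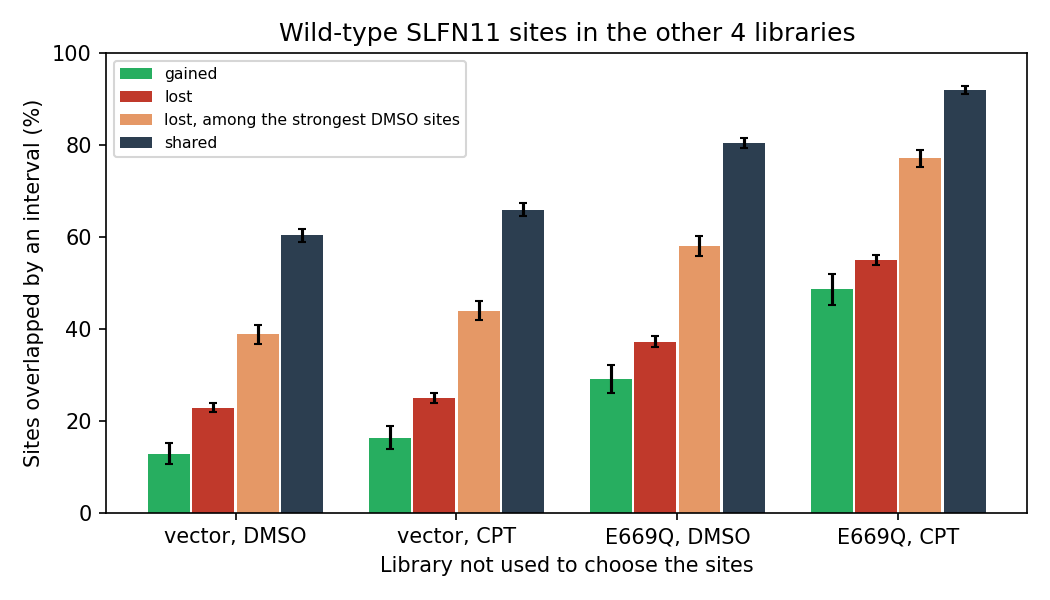
Share of wild-type SLFN11 sites (y axis, percent) overlapped by an interval in each of the 4 libraries of the other lines (x axis), for gained, lost, lost among the strongest DMSO sites at matched length, and shared sites as listed with DMSO. Bars are single libraries with 95% Clopper-Pearson intervals. In every library gained sites are the least often found and shared sites the most often, and all 4 sets are found most often in E669Q with CPT, the deepest library.

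Gained sites that were in all other libraries show places where the wild-type SLFN11 DMSO library alone had no call. The strongest, chosen after their values were seen, were chrX:53711109-53711317, chr6:130173556-130173789 and chr19:5680580-5680928. On chromosome X the pileup was 12 fragments with CPT here, 10 and 7 in the vector libraries, and 11 and 13 in the E669Q libraries. Of the gained sites in no other library, after those on chromosomes 2, 21 and 19 given above, the next by −log10 p were chr10:27443320-27443497 and chr7:100550760-100550889, with 11 and 9 fragments.

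By chromosome, gained sites leaned to chromosomes 15, 17 and 12. Of the CPT intervals on chromosome 15, 37.0% were gained (26.6 to 48.5), on chromosome 17 30.4% (24.4 to 36.8) and on chromosome 12 28.1% (21.8 to 35.2), against 15.1% over all. Chromosome 19 had 21.3% (16.99 to 26.04) and chromosome 6 10.2% (7.56 to 13.4). Lost sites ran from 49.6% on chromosome 19 (45.3 to 54.0) to 75.8% on chromosome 15 (69.5 to 81.4), leaving out the mitochondrial genome. Chromosomes 9, 12, 13, 15, 18 and 20 lay above the overall share in both directions, as did chromosome Y with few intervals. At matched length chromosome 15 was again the highest in loss with 60.7% of 61 sites (47.3 to 72.9), and chromosome 22 the lowest with 23.1% of 65 (13.5 to 35.2). These chromosomes were picked from the data and carry no adjustment for the number looked at.

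**Figure D4:**
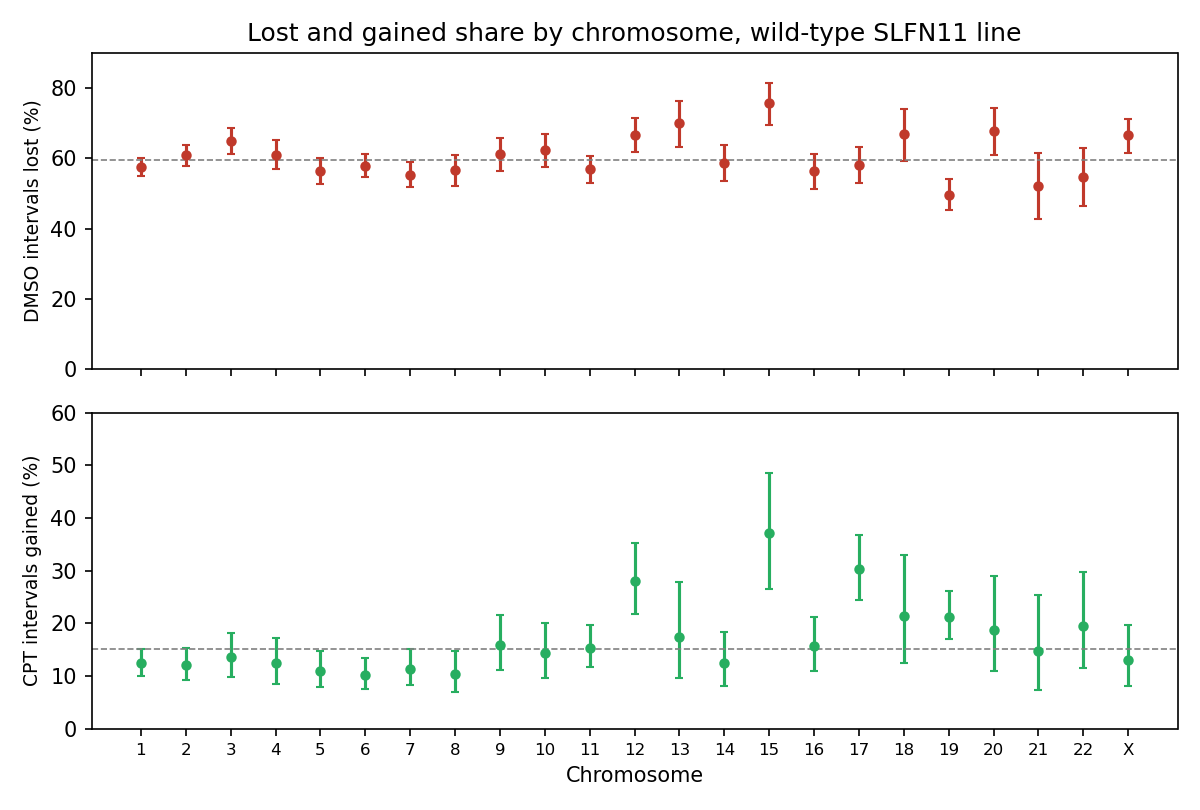
Share of DMSO intervals lost (upper panel) and of CPT intervals gained (lower panel) on each chromosome of the wild-type SLFN11 line, in percent, with 95% Clopper-Pearson intervals and the share over all chromosomes as a dashed line. Chromosome 15 is the highest in both panels and chromosome 19 the lowest for loss.

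Chromosomes 12, 15, 17 and 19 were set against the sites that other libraries held outside the same DMSO list, and of these 4 chromosomes only chromosome 17 had an interval above those of every other library. It carried 68 of 838 gained sites, or 8.11% (6.36 to 10.2). Of the sites outside the DMSO list, chromosome 17 carried 2.60% (1.62 to 3.95) in vector with DMSO, 2.05% (1.24 to 3.18) in vector with CPT, 3.53% (2.75 to 4.44) in E669Q with DMSO and 3.63% (3.08 to 4.25) in E669Q with CPT. The difference was not tested. Chromosome 19 carried 8.47% (6.68 to 10.6) of gained sites. There the E669Q libraries were close, with 7.52% (6.39 to 8.77) with DMSO and 6.64% (5.90 to 7.44) with CPT, while the vector libraries had 2.35% and 2.27%. Within the E669Q line, chromosome 17 also stood high. Of its 405 CPT intervals there, 225 (55.6%, 50.6 to 60.5) had no partner in the E669Q DMSO list. That share was the highest of any chromosome in that line, with chromosome 22 nearly level at 55.4% (47.5 to 63.1), against 45.2% over all. By this measure, which is not the share of outside sites given above, a high chromosome 17 was not particular to the wild-type SLFN11 line. Chromosome 17 held 4.03% of the whole CPT list and 3.24% of the whole DMSO list of the wild-type SLFN11 line. This look at chromosome 17 was chosen after its values were seen.

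The 68 gained sites of chromosome 17 were spread along it. Between 0 and 10 Mb there were 12 of 24 CPT intervals, between 40 and 50 Mb 17 of 49, and between 70 and 80 Mb 14 of 44. Their medians were close to those of all gained sites, with a width of 166 bp, a pileup of 6 fragments and a fold of 4.93. In E669Q with CPT 33 of the 68 were called, in E669Q with DMSO 15, in vector with CPT 6 and in vector with DMSO 2, and 30 were called in no other library. Over all 838 gained sites the shares were, in the same order, 48.6%, 29.0%, 16.2% and 12.6%, with 39.3% in no other library. After chr17:80606149-80606425, the strongest were chr17:3796369-3796529 (11 fragments), chr17:42200846-42201011 (9) and chr17:72450126-72450286 (8). That at chr17:42200846-42201011 lay 0.104 kb from a DMSO interval.

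Gained sites rarely came together. Joined over gaps of up to 100 kb they formed 767 loci, of which 701 were single sites, and no locus held more than 3. The 5 loci with 3 gained sites lay at chr7:99699160-99775301, chr6:27521003-27662012, chr1:28908339-28975741 and chr1:43423914-43510961, and chr16:29888915-29973388. The locus on chromosome 6, 141 kb long, had 5 DMSO intervals, all lost, and 3 CPT intervals, all gained. There the gained sites had 4 to 9 fragments. Neither vector library had an interval in it, and E669Q had 4 with DMSO and 1 with CPT. The locus on chromosome 7 had 4 CPT intervals, 3 of them gained, and all 3 were also called in E669Q with CPT. In the locus at chr1:28908339-28975741, lost DMSO intervals were centred 27.6 and 33.3 kb from its middle. Gained sites next to them were centred at 27.9 and 33.6 kb, with no shared base.

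Lost sites lay nearer to the medians of their own list than gained sites did to theirs. Their median fold was 5.70 (5.65 to 5.72) and their median pileup 9 fragments, against 6.17 and 11 for all DMSO intervals. Gained sites had 4.91 and 6, against 5.91 and 9 for all CPT intervals. Lost sites are 59.5% of their list and gained sites 15.1% of theirs, which by itself brings the lost medians nearer. The lost sites with the highest −log10 p were narrow spikes. The 10 strongest were 109 to 186 bp wide with 1 summit each. They included chr11:10530435-10530566 (fold 10.7), chr6:62284043-62284155 (48.1), chr5:134259792-134259920 (6.58) and chr4:163342579-163342705 (32.5). Several stood beside an interval that was kept. The site on chromosome 11 lay 0.192 kb from a CPT interval, and those at chr1:569828-570013 and chr1:565730-565846 lay 0.253 and 0.238 kb from one. These sites on chromosome 1 had folds of only 2.60 and 1.73, the latter the lowest of all lost sites. A high −log10 p was thus not always a high fold.

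Such spikes recurred unevenly over the libraries. The site on chromosome 4 had 84 fragments with DMSO here, 81 in vector with CPT, 71 in E669Q with DMSO and 108 in E669Q with CPT, and was not called in vector with DMSO. The site at chr19:24184079-24184190 had 70 fragments here and 93 in E669Q with CPT, and was called in no other library. That at chr11:73221737-73221858 had 61 fragments here and 51 in E669Q with DMSO only. The remaining ones were chr9:44070666-44070789 and chr18:45379644-45379752. Of the 10, the site on chromosome 18 was called in no other library, and each of the others was called in 1 to 3 of the libraries of the other lines. In 8 of these 9 cases the deepest library, E669Q with CPT, was among them.

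Broad lost sites looked different. The widest were chr9:123638596-123639646 (1051 bp), chr1:222885392-222886387 (996 bp) and chr1:247494478-247495454 (977 bp), chr5:109024707-109025670 (964 bp) and chr14:77787119-77788027 (909 bp). The site at chr1:222885392-222886387 had 3 summits, and its strongest had 31 fragments with DMSO. Both vector libraries had it, with 22 fragments with DMSO and 18 with CPT, and E669Q had 18 and 21. The nearest CPT interval of its own line was 67.8 kb away. The site on chromosome 5 had 30 fragments with DMSO, 17 and 16 in the vector libraries and 13 and 25 in the E669Q libraries. Of these 5 widest sites, 4 were called in all 4 libraries of the other lines.

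Of the other 17 lost sites with 3 summits, the 4 of highest −log10 p had 19 to 21 fragments with DMSO at their strongest. They were chr3:42623247-42623939 and chr3:33839929-33840664, chr6:170101938-170102667 and chr17:79319531-79320225. The site on chromosome 6 was called in both vector libraries, with 11 and 13 fragments, and in both E669Q libraries, with 16 and 20.

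Some sites lost from the upper part of the DMSO list were present in every other library. Of 2159 lost sites among the strongest 5562, 388 (18.0%, 16.4 to 19.7) overlapped an interval in all 4 libraries of the other lines. Among the 3403 strongest DMSO sites that were found again, 1935 did (56.9%, 55.2 to 58.5), so this was rarer among lost sites. The strongest of the 388 lost sites was at chr6:144384929-144385397, a site of 469 bp with 2 summits. Its pileup was 34 fragments with DMSO here, 17 and 18 in the vector libraries with DMSO and CPT, and 13 and 26 in the E669Q libraries. Its fold, 12.8 here, was 7.40 to 10.1 in the other 4. Another of the 5 strongest, at chr6:144164085-144164727, had 29 fragments here and 12 to 24 elsewhere.

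The site at chr2:74881227-74881553 had 25 fragments and a fold of 14.1 with DMSO, against 6 to 15 fragments and a fold of 4.97 to 8.05 in the other 4 libraries. These lost sites were picked for a high −log10 p in the wild-type SLFN11 DMSO list, the deeper one of its line. High values in that library thus follow in part from the choice. The site at chr2:21451277-21451685 had 30 fragments here and 18, 13, 24 and 40 in vector with DMSO, vector with CPT, E669Q with DMSO and E669Q with CPT. The site at chr7:80790881-80791345 had 27 fragments here and 8 to 12 elsewhere.

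Absence from 1 library alone was not rarer in the untreated vector library. Over the 6 lists, 527 regions were missing only from the wild-type SLFN11 library with CPT. Missing only from vector with DMSO were 634, and only from vector with CPT 418, at relative depths of 1.09, 1.00 and 1.09. In the deeper libraries the counts were 17 for wild-type SLFN11 with DMSO, 148 for E669Q with DMSO and 15 for E669Q with CPT. A further 2149 regions were in all 6.

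Lost sites were next grouped into loci in the same way. Over gaps of up to 100 kb they formed 4075 loci, of which 2549 were single sites and 163 held 5 or more. The largest, at chr9:139606423-140196882, held 17 lost sites among 25 DMSO intervals, while 8 DMSO intervals were kept and the CPT list had 9 intervals there. Vector had 8 intervals in it with DMSO and 9 with CPT, close in number to the CPT list of the wild-type SLFN11 line. E669Q had 18 and 20. Of the 17 lost sites, 4 were called in vector with DMSO, 2 in vector with CPT, 10 in E669Q with DMSO and 12 in E669Q with CPT.

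The next were at chr6:2783595-3356269 with 15 lost sites among 21 DMSO intervals, and at chr16:1821610-2318465 with 14 among 22. In the first, vector had 12 intervals with DMSO and 8 with CPT against 5 in the CPT list here. In the second it had 4 and 3 against 8 here. At chr19:507409-1095590, 13 of 19 DMSO intervals were lost. There the CPT list had 6 intervals, vector 1 and 2, and E669Q 21 and 24. At chr6:28584034-28949781, 13 of 17 DMSO intervals were lost and 1 of 5 CPT intervals was gained. These loci were picked for their number of lost sites, so they hold many DMSO intervals by construction, and their lost shares stand beside the 59.5% over the whole list. No locus of the 5 was emptied, and each kept 4 to 8 of its DMSO intervals.

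**Figure D5:**
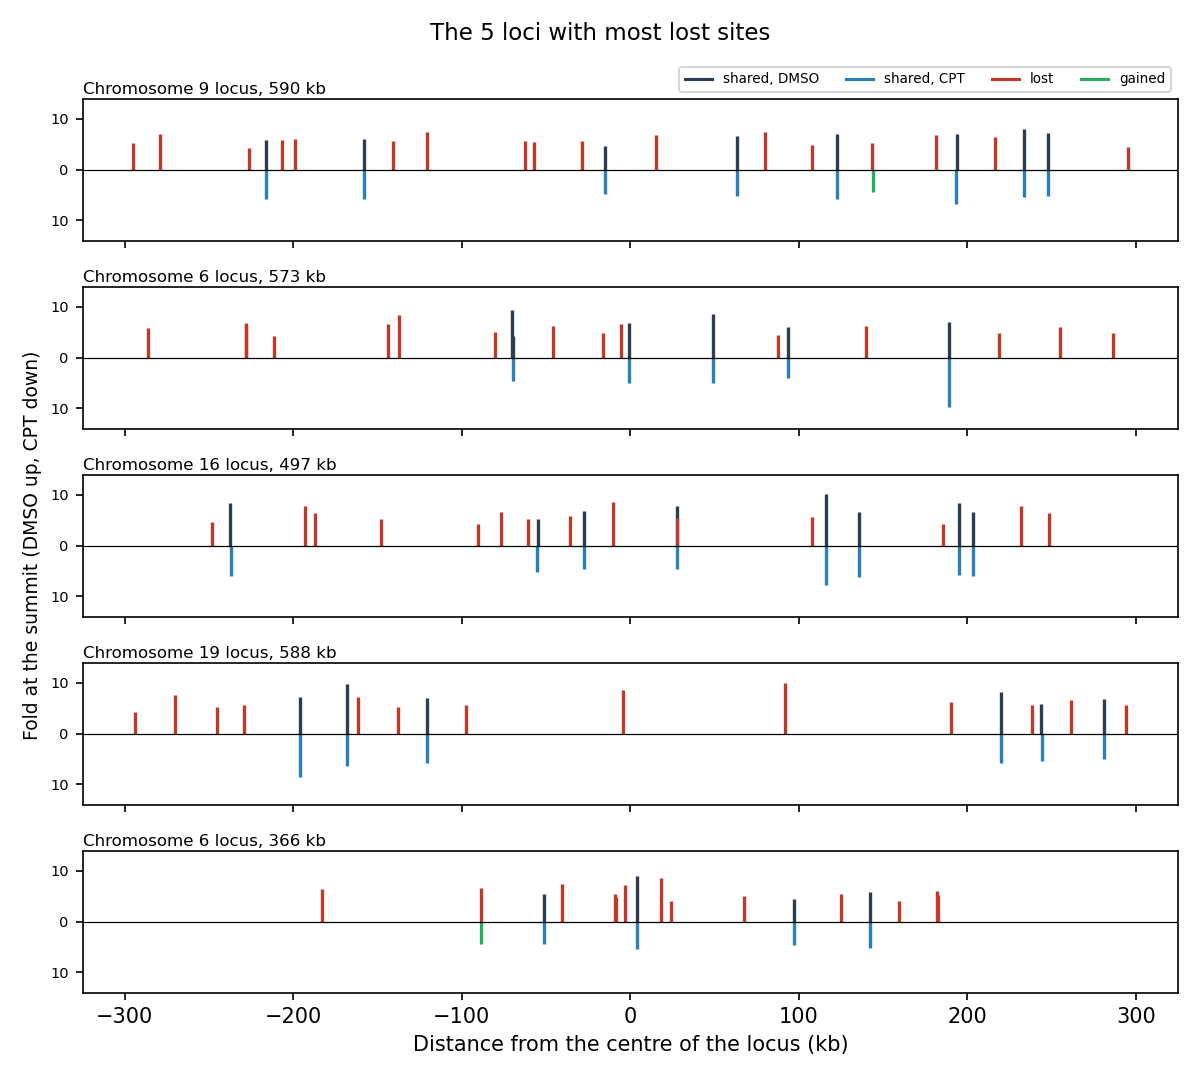
The 5 loci with most lost sites. Each line is an interval at its distance from the centre of the locus (x axis, kb), with the authors' fold at the summit (y axis), DMSO upward and CPT downward. Lost sites (red) stand between shared ones (dark and light blue) in each locus, and 2 of the 5 loci hold a gained site (green).

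The 1 bp rule drew its line through continuous stretches in some cases. The shared pair with the smallest overlap, 2 bp, was at chr6:52529057-52529195 with DMSO and chr6:52529194-52529372 with CPT. Just outside the rule, the DMSO interval at chr12:107167884-107168294 directly adjoined the CPT interval chr12:107168295-107168516, with fold 5.58 and 5.79, and the pair was counted as 1 lost and 1 gained site. Within 500 bp of a DMSO interval lay 172 gained sites (20.5%, 17.8 to 23.4), and within 500 bp of a CPT interval 309 lost sites (4.45%, 3.98 to 4.97). Of the sites of the vector libraries outside the DMSO list, 14.6% with DMSO and 16.4% with CPT lay that close to it. The median distance was 27.7 kb for gained and 85.4 kb for lost sites.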

How the data were processed

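The members and lists described here were chosen with earlier results of these data known. Each library had 1 deposited peak list, and groups were taken from the labels. The submitters' processing notes name MACS2 2.1.2, Picard 2.9.2, SAMtools 1.8, Bowtie2 2.2.6, Trimmomatic 0.39 and the build hg19, with no settings. In the sources used here, treatment of duplicates, shifting of reads and reads sequenced are not given. The authors deposited a fold (a linear ratio to local background) for each summit. They also deposited −log10 p and −log10 q per summit, and a score that equals the whole part of 10 times −log10 q in every entry. These values are the authors', and served to order and select peaks inside each list.

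Distinct intervals were compared, each with the values of its summit of highest −log10 p. With MACS2's formula and a pseudocount of 1 assumed, fold and −log10 p gave a whole pileup and background, with a tolerance of 0.001 in −log10 p, in 99.5% to 99.7% of intervals. Relative depth is the lowest background over its step (taken as 1 fragment in 10 kb). Scripts were tested on simulated data. Named sites follow fixed rules: the 10 gained and 10 lost of highest −log10 p, the 5 widest, those with most summits, the 5 largest rank moves each way, the 5 densest loci, and 5 by presence in other libraries. Gene lists were not used, since no hg19 annotation was. Medians carry 95% intervals from order statistics. The work used scipy 1.17.1, pandas 2.3.3, numpy 2.4.6 and matplotlib 3.10.9 under Python 3.11.15.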

Additional observations from a re-analysis of the deposited data

Results flagged for a closer look

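Within the wild-type SLFN11 line 3 measures moved the opposite way to another line, each in single libraries, so the differences were not tested. The number of intervals, CPT over DMSO, had a ratio of 0.477, against 1.11 for vector and 1.47 for E669Q. The share of intervals with 2 or more summits had a ratio of 0.458, from 13.3% to 6.09%, against 1.03 and 1.66. Median interval width had a ratio of 0.845, against 1.01 in the E669Q line, and 0.959 in the vector line, which moved the same way. Relative depth went from 1.72 to 1.09 in the wild-type SLFN11 line, from 1.00 to 1.09 in the vector line and from 1.33 to 2.22 in the E669Q line, so it moved with all 3 measures in the SLFN11 lines.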

How the results depend on the processing

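Of 84 values recomputed under 9 alternative settings, 23 stayed within 1.5 times (counts) or within the 95% interval (shares and medians) and 61 moved. The length of the lists and the threshold on q both moved the counts. Gained sites numbered 2118 at matched length by −log10 p, 2294 by fold and 1278 with the 2781 strongest of each list, and lost sites 2159, 2333 and 1291. With −log10 q of at least 5 in both lists 375 were gained, and with it asked of the counted list alone 130 were gained and 3311 lost. The share of the CPT list found with DMSO was 61.9%, 58.8% and 54.0% at the 3 lengths, 94.9% with q asked of the counted list, 80.2% when an overlap of 50% of the shorter interval was asked, 88.0% with gaps of 500 bp allowed and 80.5% over summit entries. The share of the DMSO list found with CPT was 61.2%, 58.1% and 53.6% at the 3 lengths, 29.8% and 54.2% with q asked of both lists or the counted one, 38.1% with the 50% overlap and 43.1% with the gaps.

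Median width with q asked of both lists was 248 bp for gained, 322 for lost, and 461 and 317 bp for shared sites as listed with DMSO and CPT. At matched length it was 199, 313, 444 and 274 bp. With the 50% overlap it was 188 bp for gained and 406 bp for shared DMSO sites. Sites with 2 or more summits were 1.07%, 14.1%, 36.9% and 14.4% of the same 4 sets with q asked of both lists. At matched length they were 12.0%, 33.9% and 9.49% of lost, shared DMSO and shared CPT sites.

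In vector with DMSO, vector with CPT, E669Q with DMSO and E669Q with CPT in turn, gained sites were found at 31.5%, 41.1%, 62.4% and 80.5% with q asked of both lists, and at 24.5%, 29.5%, 47.0% and 67.7% at matched length. Lost sites were found at 41.7%, 46.2%, 60.8% and 77.9%, and at 38.8%, 43.9%, 58.0% and 77.1%. With the 50% overlap lost sites were found at 20.6%, 22.7%, 33.6% and 50.6%, and gained sites in E669Q with CPT at 44.8%. The cut on q, and the cut to the 2781 strongest, by construction leave fewer and stronger sites in the lists they are asked of. Matching at 5562 cuts the DMSO list only and leaves the CPT list whole. Of its 2118 gained sites by −log10 p, 1280 overlapped a weaker DMSO interval. With q asked of both lists, gained sites likewise include sites that overlap a weaker DMSO interval. The cause of the other moves was not tested. The chromosome 17 share of gained sites, chosen after seeing the data, was 6.23% to 8.11% over 5 added settings, and that of chromosome 19 was 8.09% to 15.4%. The lowest listed pileup was 4 to 6 fragments, so sites under that could not be listed at these depths. No paired analysis was possible because the comparison within the wild-type SLFN11 line is 1 library against 1, and the 3 lines differ in genotype and are not replicates of it.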

Other observations

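In the 4577 pairs of shared intervals the strongest summits of the DMSO and CPT lists lay a median of 66 bp apart, within 50 bp of each other in 42.1% of pairs and over 200 bp apart in 11.3%. The E669Q list with CPT, the deepest of the series, was found at 38.3% (95% interval 37.4 to 39.2) in the wild-type SLFN11 library with CPT, at 39.5% (38.6 to 40.3) in vector with CPT and at 35.1% (34.2 to 35.9) in vector with DMSO.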
